A study of Homo sapiens with 24 samples.

Results

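The genes described here are the 6 mitochondrially encoded subunits of respiratory complexes III, IV and V: CYTB of complex III, COX1, COX2 and COX3 of complex IV, and ATP6 and ATP8 of complex V. They were chosen by gene symbol from the 26450 genes of the expression table, where mitochondrial genes are written without a prefix, and all 6 were found and passed the filter on low values. RNA was sequenced from 24 libraries of 2 human lines, PANC-1, epithelial cells of a pancreatic duct tumour, and HEK293T, transformed cells of embryonic kidney. The 8 groups, of 3 libraries each, were the 2 lines in flat 2D culture, as aggregates in AggreWell plates, and in capillary containers rotated about 2 axes (DRCC) at 1 rpm or at 30 rpm. The labels name no other treatment. They do not say whether the libraries of a group came from separate cultures, so the p-values reflect the spread among the libraries, which could be technical. Each line is an established culture, not a tissue. RNA was taken from whole cultures, in which a lower level in all cells and a lower level in a part of them cannot be told apart. Levels are relative to the other RNA of a library, so a fall of a gene and a rise of the rest cannot be told apart either.

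Complexes III and IV pass electrons from ubiquinol to cytochrome c and on to oxygen while pumping protons across the inner mitochondrial membrane, and complex V, the ATP synthase, lets the protons flow back to make ATP. Most of their subunits are encoded in the nucleus and imported. The mitochondrial genome encodes a few membrane-embedded core subunits, and its genes are copied as long precursor RNAs that are cut at the tRNAs lying between them. COX1 carries the site where oxygen is reduced, COX2 takes electrons from cytochrome c, COX3 is the remaining core subunit, CYTB holds the quinone sites of complex III, and ATP6 and ATP8 belong to the membrane part of the ATP synthase.

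Levels are in FPKM, which divides a gene's fragments by its length and by the depth of the library, so levels of different genes are compared per length. Changes are on the log2(FPKM + 1) scale with their standard error (SE), n = 3 libraries per format, and a gene was called where limma's p, adjusted over all genes tested, was under 0.05. Libraries held 32555400 to 39556168 fragments, and the fewest fragments of any of the 6 genes in a library were 736 for ATP8 and at least 10900 for each of the others. The median change of all tested genes against 2D was 0.10, 0.15 and 0.17 in PANC-1 for AggreWell, 1 rpm and 30 rpm, and 0.12, 0.18 and 0.13 in HEK293T. Of the genes called in these comparisons, 65.6%, 60.7% and 62.5% were higher in PANC-1 and 64.5%, 62.6% and 58.3% in HEK293T. Median-ratio scaling of the libraries turned these shares into 40.2%, 46.7% and 47.5%, and into 41.9%, 45.3% and 46.5%. It moved the changes of the 6 genes against 2D by -0.19 to -0.24 in PANC-1 and by -0.21 to -0.30 in HEK293T. Line markers mostly matched the labels: the summed level of 7 PANC-1 markers was 2440 to 3160 FPKM in PANC-1 and 76.3 to 125 FPKM in HEK293T, and that of the 5 HEK293T markers found was 9.55 to 16.0 and 88.0 to 133 FPKM. The largest part of each sum in its own line came from 1 gene. These were S100A6, with 1560 to 2360 FPKM in PANC-1, and CDKN2A, with 43.3 to 108 FPKM in HEK293T. PAX2 went against its list, with 4.14 to 9.05 FPKM in PANC-1 and 1.26 to 1.88 FPKM in HEK293T, and KRT7 and KRT19 reached at most 1.61 and 3.27 FPKM in PANC-1. Of 6 markers of blood, endothelial and fibroblast cells, 1 reached 1 FPKM in each line, and the list summed to 5.49 to 13.4 FPKM in PANC-1 and 3.46 to 6.87 FPKM in HEK293T.

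In PANC-1, all 6 genes fell in both rotating formats, and in AggreWell 5 of 6 did not pass the test. In HEK293T, all 6 fell in AggreWell and at 1 rpm, while at 30 rpm COX1 and COX2 were not called and the other 4 genes were lower. The AggreWell result in PANC-1 and those of COX1 and COX2 in HEK293T changed with the scaling of the libraries, as given beside each gene. Together the 6 genes took 2.418 ± 0.18% of the fragments counted in genes in PANC-1 2D (SD, n = 3), 2.38 ± 0.0279% in AggreWell, 0.9135 ± 0.0179% at 1 rpm and 0.5445 ± 0.0126% at 30 rpm. In HEK293T they took 3.081 ± 0.0652%, 2.199 ± 0.036%, 1.974 ± 0.055% and 2.385 ± 0.0417% in the same order. Each PANC-1 library from a rotating format lay below each of the 6 PANC-1 libraries from 2D and AggreWell, whose shares ran from 2.283% to 2.622%. Each HEK293T library from a 3D format lay below the lowest 2D library at 3.021%.

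**Figure D1:**
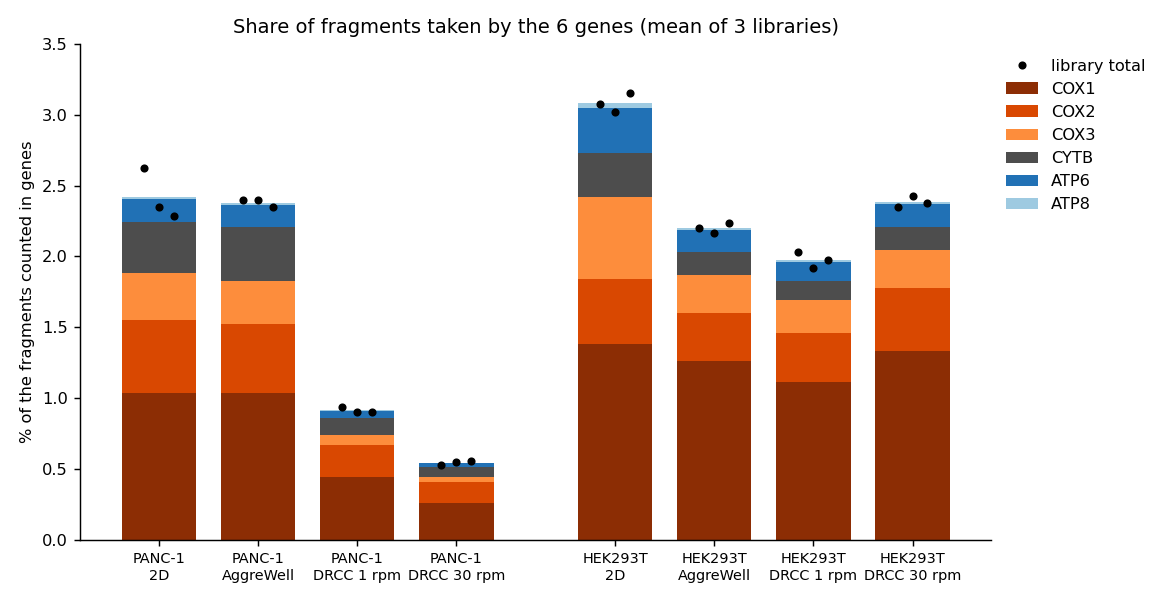
Stacked bars give the mean percentage of fragments taken by COX1, COX2, COX3, CYTB, ATP6 and ATP8 in each group, and black points give the summed percentage in each of the 3 libraries. The PANC-1 bars drop from 2.418% in 2D to 0.5445% at 30 rpm, while the HEK293T bars stay between 1.974% and 3.081%.

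Read against all genes, the counts were as follows. For PANC-1 AggreWell against 2D, 1 of the 6 genes was called lower, where 24.1% of 11585 tested genes were. All 6 were called lower in PANC-1 at 1 rpm and at 30 rpm, where 33.9% and 32.2% of tested genes were, with median changes of -1.63 and -2.34. In HEK293T, 6 of 6 were called lower in AggreWell and at 1 rpm, against 26.8% and 31.7% of 12548 tested genes, with median changes of -0.99 and -1.23. At 30 rpm 4 of 6 were called lower in HEK293T, against 35.5% of tested genes, with a median change of -0.95. The 3 comparisons of a line use the same 2D libraries, so their results are not independent of each other.

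**Figure D2:**
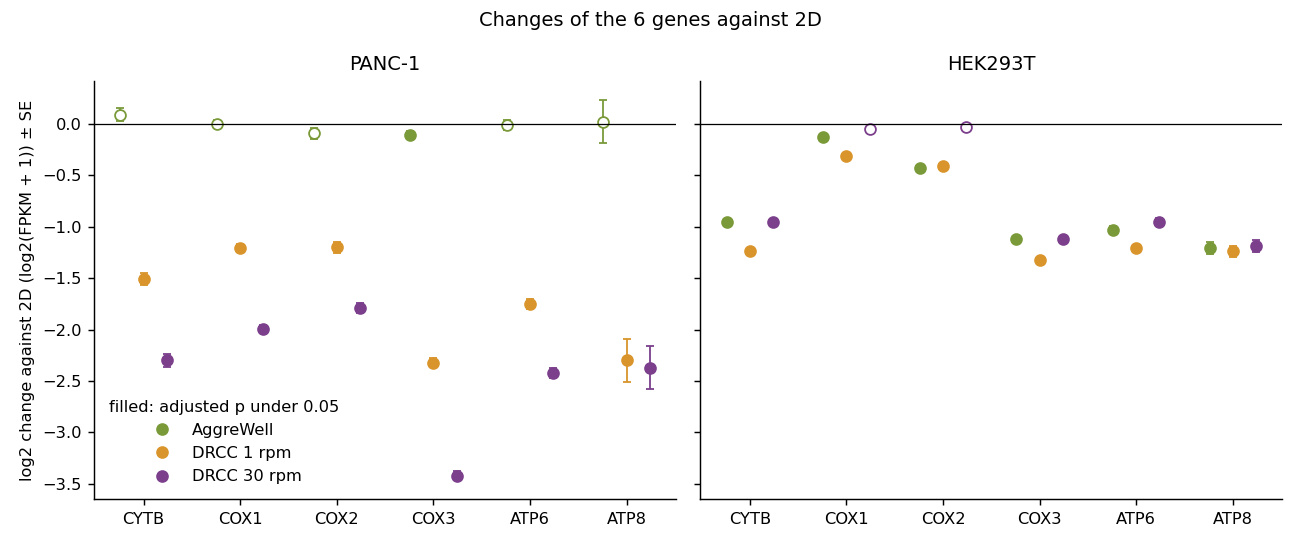
Each point is the log2 change of 1 gene against 2D on the log2(FPKM + 1) scale, with its SE as the bar, for PANC-1 on the left and HEK293T on the right. Filled points were called, and open points (5 in PANC-1 AggreWell, 2 in HEK293T at 30 rpm) were not.

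COX3 had the largest log2 change of the 6 genes in PANC-1 at both rotation speeds and in HEK293T at 1 rpm. In PANC-1 at 1 rpm ATP8 was close, at -2.30 ± 0.211, and its ratio of means was larger, 5.18 against 5.01. The PANC-1 2D libraries held 4556, 4115 and 4032 FPKM of COX3 and the AggreWell libraries 3944, 3882 and 3906 FPKM. Those at 1 rpm held 866.7, 821.6 and 847.8 FPKM, and those at 30 rpm 389.9, 381 and 408.1 FPKM. The 2 rotating formats did not overlap with each other or with the static formats. COX3 fell by 2.32 ± 0.041 at 1 rpm (limma adjusted p = 1.0e-14) and by 3.42 ± 0.041 at 30 rpm (limma adjusted p = 3.6e-16), the latter a 10.8-fold difference of means and the third largest fall of all 11585 tested genes. In AggreWell it was the lone called member, at -0.11 ± 0.041 (limma adjusted p = 0.027). That call was lost without PANC-1 2D replicate 1 (-0.06), without AggreWell replicate 2 or 3 (-0.11 each), with no filter on low values, in a fit of only the 2 formats, and under quantile normalization (-0.05, limma adjusted p = 0.1). It was kept under median-ratio scaling, and over the settings with all libraries the change ran from -0.31 to -0.05.

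In HEK293T, COX3 stood at 7316, 7192 and 7600 FPKM in 2D, above every other group of either line. Its AggreWell libraries held 3406, 3339 and 3432 FPKM, those at 1 rpm 2889, 2916 and 3067 FPKM, and those at 30 rpm 3313, 3430 and 3412 FPKM. The fall against 2D was 1.12 ± 0.026 in AggreWell, 1.32 ± 0.026 at 1 rpm and 1.12 ± 0.026 at 30 rpm, with limma adjusted p = 1.5e-12, 1.1e-13 and 3.3e-13. AggreWell and 30 rpm overlapped, and 1 rpm lay below both.

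COX1 changed less than COX3 in both lines. In PANC-1 it stood at 7112, 6573 and 6442 FPKM in 2D and at 6706, 6686 and 6740 FPKM in AggreWell, which overlapped. At 1 rpm its libraries held 2946, 2884 and 2853 FPKM and at 30 rpm 1619, 1733 and 1699 FPKM, with no overlap. COX1 fell by 1.21 ± 0.037 (limma adjusted p = 1.4e-12) and by 1.99 ± 0.037 (limma adjusted p = 1.2e-14). For AggreWell the change was 0.00 ± 0.037 (limma adjusted p = 0.97), and -0.19 and called lower under median-ratio scaling.

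COX1 was the most abundant member in HEK293T in every format. The libraries held 9006, 8709 and 9214 FPKM in 2D, 8129, 8102 and 8366 FPKM in AggreWell, and 7503, 7008 and 7206 FPKM at 1 rpm. COX1 fell by 0.13 ± 0.027 in AggreWell (limma adjusted p = 7.6e-04) and by 0.31 ± 0.027 at 1 rpm (limma adjusted p = 1.7e-07). At 30 rpm the libraries held 8477, 8853 and 8608 FPKM, overlapping with 2D, and the change of -0.05 ± 0.027 was not called (limma adjusted p = 0.082). It was called lower under median-ratio scaling (-0.27), with voom on the recovered fragments (-0.05), and without HEK293T 2D replicate 2 (-0.08) or 30 rpm replicate 2 (-0.07). With no filter on low values the AggreWell change of -0.13 was not called (limma adjusted p = 0.067). Quantile normalization set the HEK293T changes of COX1 in AggreWell and at 1 rpm to 0, as it does for a gene with the same top rank in all libraries.

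COX2 was the most abundant member in PANC-1 in all 4 formats. Its PANC-1 libraries held 8351, 7277 and 7124 FPKM in 2D, 7067, 7431 and 6853 FPKM in AggreWell, 3388, 3238 and 3254 FPKM at 1 rpm, and 2124, 2161 and 2270 FPKM at 30 rpm. The first pair of formats overlapped and the rotating formats lay apart from them and from each other. COX2 fell by 1.20 ± 0.053 at 1 rpm (limma adjusted p = 5.9e-11) and fell by 1.79 ± 0.053 at 30 rpm (limma adjusted p = 1.1e-12), the smallest fall of the 6 genes at 30 rpm and close to that of COX1 at 1 rpm. The AggreWell value was -0.09 ± 0.053 (limma adjusted p = 0.15). It was called lower under median-ratio scaling (-0.28, limma adjusted p = 0.0014), with voom on the recovered fragments (-0.09, adjusted p = 0.03) and without PANC-1 2D replicate 3 (-0.13, limma adjusted p = 0.049).

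In HEK293T, COX2 held 6554, 6829 and 6640 FPKM in 2D, 5054, 4845 and 4931 FPKM in AggreWell, 5221, 4870 and 4969 FPKM at 1 rpm, and 6436, 6671 and 6456 FPKM at 30 rpm. AggreWell and 1 rpm were low and overlapped, and 30 rpm overlapped with 2D. COX2 fell by 0.43 ± 0.027 in AggreWell and by 0.41 ± 0.027 at 1 rpm (limma adjusted p = 9.3e-09 and 6.9e-09), changes that quantile normalization also set to 0. The value at 30 rpm was -0.03 ± 0.027 (limma adjusted p = 0.25), -0.24 and called lower under median-ratio scaling, and 0.20 and called higher under quantile normalization.

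CYTB, the complex III member, was called lower in the same comparisons against 2D as ATP6. In PANC-1 it held 3500, 3028 and 2803 FPKM in 2D, 3395, 3322 and 3177 FPKM in AggreWell, 1114, 1066 and 1092 FPKM at 1 rpm, and 620.8, 615.9 and 642.3 FPKM at 30 rpm. It fell by 1.51 ± 0.06 and 2.30 ± 0.06 in the rotating formats (limma adjusted p = 1.9e-11 and 2.9e-13). In AggreWell the value was 0.09 ± 0.06 (limma adjusted p = 0.19), and without PANC-1 2D replicate 1, the highest 2D library for each of the 6 genes, it was 0.18 and called higher. Quantile normalization also gave a call, at 0.26 (limma adjusted p = 2.2e-05).

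In HEK293T, CYTB held 2808, 2688 and 2789 FPKM in 2D, 1463, 1363 and 1454 FPKM in AggreWell, 1176, 1148 and 1174 FPKM at 1 rpm, and 1429, 1437 and 1430 FPKM at 30 rpm. The 3D libraries lay below each 2D library, and those of AggreWell and 30 rpm overlapped. CYTB fell by 0.95 ± 0.026, 1.24 ± 0.026 and 0.95 ± 0.026 in AggreWell, at 1 rpm and at 30 rpm (limma adjusted p = 5.6e-12, 1.7e-13 and 1.6e-12).

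ATP8 and ATP6 lie on 1 transcript and overlap, which bears on how far their levels can be read apart. In GENCODE v29 on GRCh38, ATP8 spans chrM:8366-8572 and ATP6 chrM:8527-9207 on the plus strand, sharing 46 bases, and ATP6 and COX3 (chrM:9207-9990) share 1 base. COX1 lies at chrM:5904-7445, COX2 at chrM:7586-8269 and CYTB at chrM:14747-15887. These genes have no introns. Below, the whole ATP8 gene and the start of ATP6 are given 5′ to 3′ with the 46 shared bases in capitals, followed by the end of ATP6 and the start of COX3 with the shared base in capitals.
ATP8: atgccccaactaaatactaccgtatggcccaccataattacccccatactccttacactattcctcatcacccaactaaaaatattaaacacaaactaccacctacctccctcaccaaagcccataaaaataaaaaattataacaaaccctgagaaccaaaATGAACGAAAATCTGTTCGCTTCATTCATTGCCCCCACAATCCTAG
ATP6 start: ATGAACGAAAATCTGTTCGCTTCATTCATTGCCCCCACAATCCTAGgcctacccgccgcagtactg
ATP6 end: acctgcacgacaacacataA
COX3 start: Atgacccaccaatcacatgc
A fragment inside the shared bases belongs to both genes, and how the counting treated it was not given in the sources used here. The length in the deposited table was 207 bases for ATP8 and 681 for ATP6, each equal to the annotated gene.

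In PANC-1, ATP6 held 2598, 2316 and 2280 FPKM in 2D, 2436, 2358 and 2324 FPKM in AggreWell, 739.3, 724.1 and 668 FPKM at 1 rpm, and 453.4, 444.2 and 442.5 FPKM at 30 rpm. Only the static formats overlapped. It fell by 1.75 ± 0.047 and 2.42 ± 0.047 in the rotating formats (limma adjusted p = 4.2e-13 and 2.0e-14), and its AggreWell value was -0.01 ± 0.047 (limma adjusted p = 0.82), or -0.21 and called lower under median-ratio scaling (limma adjusted p = 0.0051). In HEK293T it held 4524, 4490 and 4784 FPKM in 2D, 2234, 2209 and 2299 FPKM in AggreWell, 2085, 1924 and 1944 FPKM at 1 rpm, and 2357, 2356 and 2419 FPKM at 30 rpm. There it fell by 1.03 ± 0.032, 1.21 ± 0.032 and 0.95 ± 0.032 (limma adjusted p = 1.5e-11, 1.1e-12 and 8.4e-12), and no 3D library overlapped with 2D.

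ATP8 was the least abundant member in every group and the most variable in PANC-1 2D and at 30 rpm. Its PANC-1 2D libraries held 996.4, 560.6 and 523.2 FPKM, a coefficient of variation of 37.9%, and those of AggreWell held 729.6, 675.5 and 621.1 FPKM. At 1 rpm it held 130.9, 128.6 and 142.2 FPKM and at 30 rpm 167.9, 97.43 and 126.5 FPKM. The 2 speeds overlapped and lay below both static formats. It fell by 2.30 ± 0.211 and 2.37 ± 0.211 (limma adjusted p = 1.5e-07 and 1.1e-07), with the largest SE of the 6 genes. HEK293T libraries held 1613, 1683 and 1727 FPKM in 2D, 747.2, 672.9 and 744.6 FPKM in AggreWell, 642.6, 758.8 and 720.7 FPKM at 1 rpm, and 751.6, 698.8 and 756.2 FPKM at 30 rpm. The 3 3D formats overlapped with each other, and ATP8 fell against 2D by 1.21 ± 0.057, 1.24 ± 0.057 and 1.19 ± 0.057 (limma adjusted p = 7.7e-10, 2.3e-10 and 3.4e-10).

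**Figure D3:**
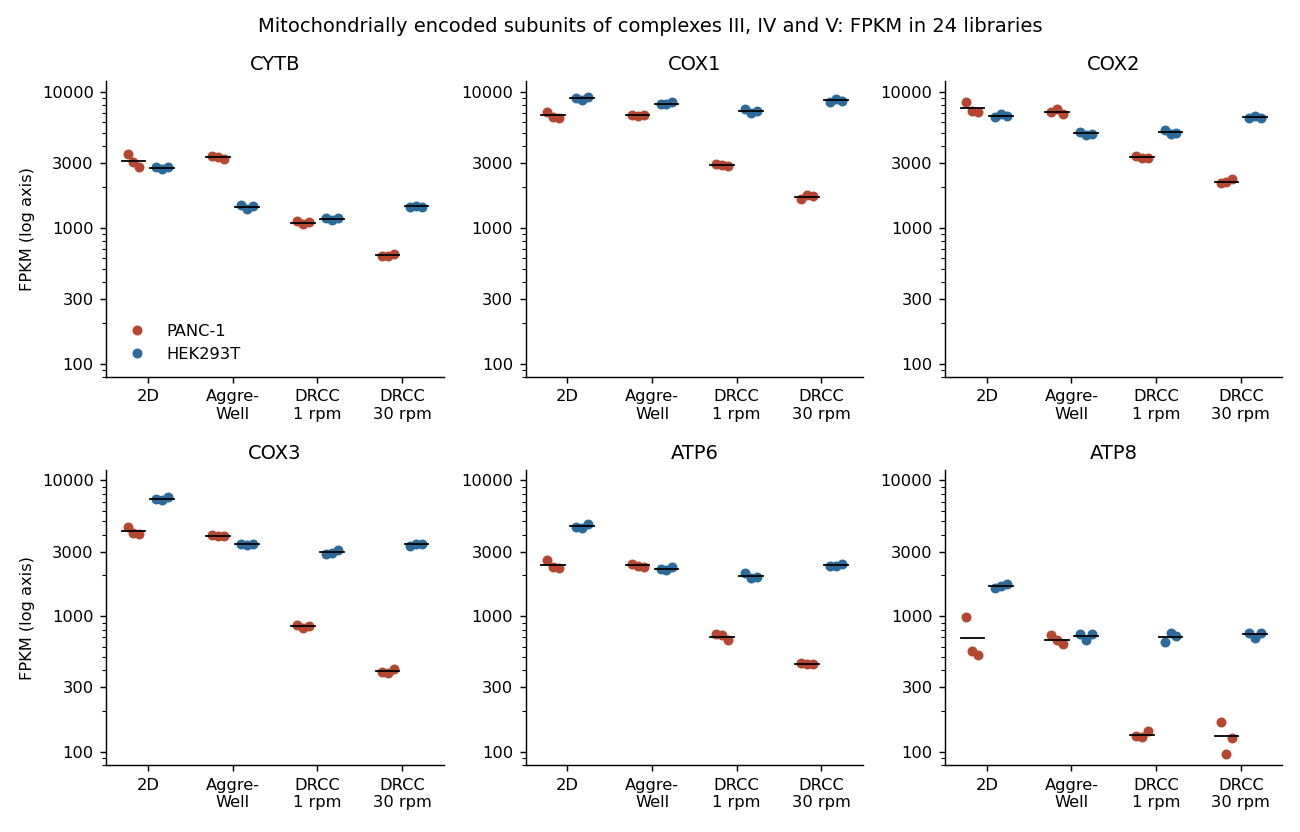
Each panel shows 1 gene, with FPKM on a log axis against the 4 formats, PANC-1 in red and HEK293T in blue. Points are single libraries and black lines are group means, and COX3 runs from 381 FPKM in a PANC-1 library at 30 rpm to 7600 FPKM in a HEK293T 2D library.

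The order of the members differed between groups, and within each group no 2 neighbours in it overlapped. In PANC-1 2D and AggreWell it ran COX2, COX1, COX3, CYTB, ATP6, ATP8. At 30 rpm COX3 had dropped to the fifth place, below CYTB and ATP6, with 393 ± 13.8 FPKM against 446.7 FPKM for ATP6. In HEK293T 2D COX3 was the second, at 7369 FPKM, and in the other HEK293T formats it was the third after COX1 and COX2. As a share of the members' own fragments, COX3 made up 13.74 ± 0.113% in PANC-1 2D and 5.659 ± 0.177% at 30 rpm, and COX2 21.44 ± 0.308% and 27.45 ± 0.484%. In HEK293T COX1 made up 44.91 ± 0.407% in 2D and 55.89 ± 0.264% to 57.49 ± 0.462% in the 3D formats.

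Across the 8 groups, COX1 was highest in HEK293T 2D and at 30 rpm, which overlapped, and COX2 in PANC-1 2D and AggreWell, which overlapped as well. COX3, ATP6 and ATP8 were highest in HEK293T 2D with no overlap. CYTB was highest in PANC-1 AggreWell, PANC-1 2D and HEK293T 2D, in that order of means, with each overlapping the next. PANC-1 at 30 rpm was the lowest group for all 6 genes, without overlap with the next group except for ATP8.

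Ratios within a library do not change when all its values are multiplied by a common factor, but quantile normalization can change them. The log2 ratio of COX3 to COX1 was -0.66 in PANC-1 2D, -1.78 at 1 rpm and -2.10 at 30 rpm, and in HEK293T it was -0.28 in 2D and -1.27, -1.29 and -1.35 in AggreWell, at 1 rpm and at 30 rpm. The ratio of ATP6 to COX1 in HEK293T moved from -0.96 to -1.87, -1.87 and -1.86, and that of CYTB to COX1 from -1.70 to -2.52, -2.63 and -2.59. In PANC-1 AggreWell the COX3 to COX1 ratio moved by -0.11, and by -0.99 in HEK293T AggreWell. The ratio of COX2 to COX1 moved from 0.17 in 2D to 0.38 at 30 rpm in PANC-1, and from -0.43 to -0.73 in AggreWell and -0.41 at 30 rpm in HEK293T. In all, 9 ratios in 3 formats and 2 lines gave 54 two-sided exact permutation tests, in which 3 libraries against 3 cannot give p below 0.1, and the smallest adjusted p was 0.13. Libraries of the 2 formats did not overlap in 43 of the 54. For the levels of all tested genes, the share without overlap in the same comparisons ran from 72.2% to 86.2%.

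Between the rotation speeds, the lines moved in opposite directions. In PANC-1, 5 of 6 genes were called lower at 30 rpm than at 1 rpm, where 31.9% of tested genes were, by 0.80 for CYTB, 0.78 for COX1, 0.59 for COX2, 1.10 for COX3 and 0.67 for ATP6, and ATP8 stood at -0.07 ± 0.211 (limma adjusted p = 0.78). In HEK293T, 5 of 6 were called higher at 30 rpm than at 1 rpm, where 19.6% of tested genes were, by 0.30 for CYTB, 0.26 for COX1, 0.38 for COX2, 0.20 for COX3 and 0.26 for ATP6, and ATP8 stood at 0.06 ± 0.057 (limma adjusted p = 0.41). Quantile normalization set the COX1 and COX3 changes in this HEK293T comparison to 0, which left 3 of 6 called. Of all genes called in it 37.3% were higher, and 58.7% under median-ratio scaling. Whether the lines differed in this step was not tested by itself.

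Against AggreWell, the rotating formats gave 6 of 6 genes lower in PANC-1 at each speed, where 38.4% and 37.8% of tested genes were called lower, with median changes of -1.67 and -2.39. In HEK293T, 4 of 6 were called lower at 1 rpm, against 33.8% of tested genes, by 0.18 to 0.29, of which the COX1 change (-0.18) was set to 0 by quantile normalization, and COX2 and ATP8 stood at 0.02 ± 0.027 and -0.03 ± 0.057. At 30 rpm 3 of 6 were called higher than in AggreWell, against 39.9% of tested genes: COX2 by 0.40 ± 0.027, COX1 by 0.08 ± 0.027 and ATP6 by 0.08 ± 0.032. The COX1 and ATP6 calls (limma adjusted p = 0.021 and 0.031) were lost with no filter on low values and without AggreWell replicate 1 or 2, the COX1 call also without 30 rpm replicate 2 and the ATP6 call without 30 rpm replicate 3. The count without these libraries was 1 to 2 of 6. Quantile normalization set the COX1 change to 0, and under it COX3 and CYTB, which were not called as reported, were called lower, with -0.17 and -0.09 (limma adjusted p = 3e-11 and 0.015).

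The test of the difference between the lines in the change against 2D was passed by every member in every format, and under quantile normalization by 4, 5 and 6 of 6 in AggreWell, at 1 rpm and at 30 rpm. In AggreWell the HEK293T change was the lower one for all 6 genes, where 25% of 13392 tested genes were called so. At 1 rpm and at 30 rpm the HEK293T change was the higher one for all 6, against 40% and 37.5% of tested genes. The difference, HEK293T minus PANC-1, was widest for COX3 at 30 rpm, with 2.30 ± 0.051 (limma adjusted p = 2.0e-19), and narrowest for COX1 in AggreWell, with -0.13 ± 0.047 (limma adjusted p = 0.021). The latter was not called with no filter on low values, or without PANC-1 2D replicate 2 (-0.12) or 3 (-0.10) or HEK293T 2D replicate 3 (-0.11). Under quantile normalization the AggreWell differences of COX1 and of COX2 (-0.34 as reported) were 0 and not called. CYTB at 1 rpm, with 0.26 ± 0.07 (limma adjusted p = 0.0021), was 0.01 and not called under quantile normalization.

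Along the mitochondrial genome, the members changed like some of the complex I genes and unlike others. The heavy-strand transcript carries, in order, ND1, ND2, COX1, COX2, ATP8, ATP6, COX3, ND3, ND4L, ND4, ND5 and CYTB, where the ND genes encode complex I subunits. In PANC-1 at 30 rpm, COX3 and its neighbour ND3 changed by -3.42 and -3.11, the following ND4L and ND4 by -0.30 and -0.13, ND5 by -0.87, and CYTB, the last gene, by -2.30. There ND1 and ND2 changed by -3.17 and -2.66, and ND6, which is not on that transcript, by -7.48. At 1 rpm in PANC-1 the values of ND1, ND2 and ND6 were -2.40, -2.60 and -2.35. In HEK293T at 30 rpm they were -0.67, -1.54 and -1.06. In HEK293T at 30 rpm, ND4L, ND4 and ND5 rose by 0.23, 0.33 and 0.74 between ND3 and CYTB, which fell by 1.01 and 0.95. The ND4L and ND4 changes depended on scaling: under quantile normalization they were 0.18 and 0.45 in PANC-1 at 30 rpm, both called higher, and under median-ratio scaling ND4L was 0.02 in HEK293T at 30 rpm and not called. The log2 ratio of CYTB to its neighbour ND5 moved from 0.46 in PANC-1 2D to -1.38 at 1 rpm and -0.98 at 30 rpm, and from 0.50 in HEK293T 2D to -0.27 in AggreWell and -1.19 at each speed. The COX3 to ND4 ratio moved by -3.30 in PANC-1 and by -1.45 in HEK293T at 30 rpm.

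**Figure D4:**
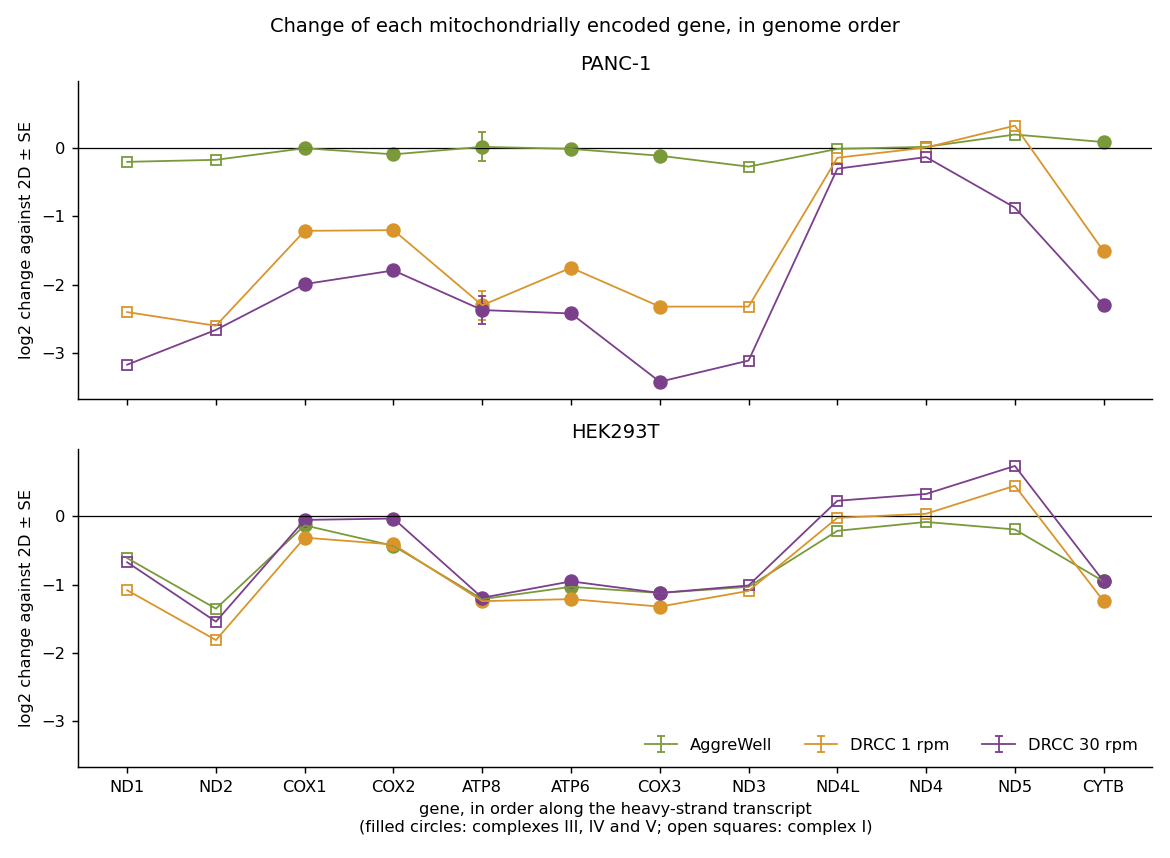
Log2 changes against 2D ± SE are drawn for 12 genes in their order along the heavy-strand transcript, PANC-1 above and HEK293T below, 1 line per format, with filled circles for the 6 members and open squares for complex I genes. Without rescaling of the deposited values, the curves of the rotating formats are low at ND1 and ND2 and higher at COX1 and COX2. They dip through ATP8, ATP6, COX3 and ND3, stand between -0.30 and 0.33 at ND4L and ND4, and dip again at CYTB.

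Of the 7 mitochondrially encoded complex I genes, 1 rose and 5 fell in PANC-1 at 1 rpm, 0 and 7 at 30 rpm, and in HEK293T 1 rose and 4 fell at 1 rpm and 3 rose and 4 fell at 30 rpm. Among all tested genes, the shares called higher and lower in these 4 comparisons were 52.3% and 33.9%, 53.6% and 32.2%, 53.1% and 31.7%, and 49.6% and 35.5%. Quantile normalization gave 3 higher and 4 lower, then 2 and 5, in PANC-1, and 3 and 4 at each speed in HEK293T. The members' share of all mitochondrially encoded fragments was 55.89 ± 0.17% in PANC-1 2D, 55.56 ± 0.336% in AggreWell, 38.51 ± 0.457% at 1 rpm and 34.07 ± 0.223% at 30 rpm. In HEK293T it was 64.73 ± 0.214%, 63.08 ± 0.232%, 57.7 ± 0.0803% and 57.37 ± 0.274%. The rotating formats lay below the static formats in both lines.

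The annotated ends of the genes were compared as well, since in some mitochondrial genes the stop codon is completed by the poly(A) tail added after the RNA is cut. The lengths of COX3 and CYTB, 784 and 1141 bases, are not multiples of 3. Neither are those of ND1, ND2, ND3 and ND4, with 956, 1042, 346 and 1378 bases. The last bases of COX3 and CYTB are shown beside those of COX2, which ends in a complete TAG. ATP8 also ends in TAG in the sequence above, and COX1 ends in AGA. The annotated ATP6 ends in TAA, but the last A is the base it shares with the start of COX3.
COX3 last bases: catctattgatgagggtctt
CYTB last bases: caaaatactcaaatgggcct
COX2 last bases: ggcccgtatttaccctatag
Whether the libraries were made from poly(A) RNA was not given in the sources used here, and no relation between this feature and the levels was tested.

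In PANC-1 each nuclear-encoded partner stood above each of the 6 members in both rotating formats, except that under quantile normalization the lowest complex V subunit (-0.76) lay just below COX2 (-0.73) at 1 rpm. At 1 rpm the lowest nuclear subunit stood at -0.48 among 9 of complex III, -0.43 among 11 of complex IV and -0.91 among 17 of complex V, and each member stood at -1.20 or lower. At 30 rpm the corresponding values were -0.75, -0.47 and -0.96, against -1.79 or lower for the members. The counts that follow stand against 33.9% and 32.2% of all tested genes called lower, and 52.3% and 53.6% called higher, at 1 rpm and at 30 rpm. In the complex III list 2 rose and 7 fell at 1 rpm and 2 rose and 5 fell at 30 rpm, the fall being largest at 30 rpm for UQCRFS1, the Rieske iron-sulfur protein, from 86.27 ± 2.94 to 50.86 ± 1.8 FPKM. In the complex IV list 0 rose and 9 fell, then 2 rose and 5 fell. In the complex V list 3 rose and 13 fell, then 2 rose and 13 fell, with ATP5MC1, a gene for the rotor ring subunit c, falling by 0.96 ± 0.042 and ATP5IF1, the inhibitor of the enzyme, rising by 0.67 ± 0.041 at 30 rpm. Under quantile normalization the numbers at 1 rpm and 30 rpm were 4 higher and 5 lower, then 3 and 4, in complex III, 3 and 1, then 5 and 5, in complex IV, and 3 and 9, then 2 and 12, in complex V. Median-ratio scaling gave 1 and 8 at each speed, 0 and 11, then 0 and 9, and 0 and 16, then 2 and 15, in the same order.

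In HEK293T the nuclear subunits fell alongside CYTB, COX3, ATP6 and ATP8. Against 2D, 0 rose and 11 fell of 11 complex IV subunits in each 3D format, with medians of -0.47, -0.63 and -0.69 in AggreWell, at 1 rpm and at 30 rpm, where 26.8%, 31.7% and 35.5% of tested genes were called lower. At 30 rpm COX1 and COX2 thus stood above all 11, of which COX6B1, a small peripheral subunit, changed most, from 311 ± 4.55 to 126.3 ± 5.82 FPKM, and COX3 (-1.12) lay within their range of -1.29 to -0.40. Under quantile normalization COX1 stood at 0 and the highest of the 11 at 0.06. Of 17 complex V subunits, 0 rose and 15, 16 and 17 fell, and ATP5MC1 fell by 1.77 ± 0.037 at 1 rpm and 1.51 ± 0.037 at 30 rpm. Of 9 complex III subunits, 2 rose and 7 fell in each format, and UQCR10, a small subunit, fell by 1.19 ± 0.024 at 30 rpm. Quantile normalization gave 0 to 1 higher and 8 to 10 lower in complex IV, 2 to 3 higher and 13 to 15 lower in complex V, and 1 to 3 higher and 6 lower in complex III.

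**Figure D5:**
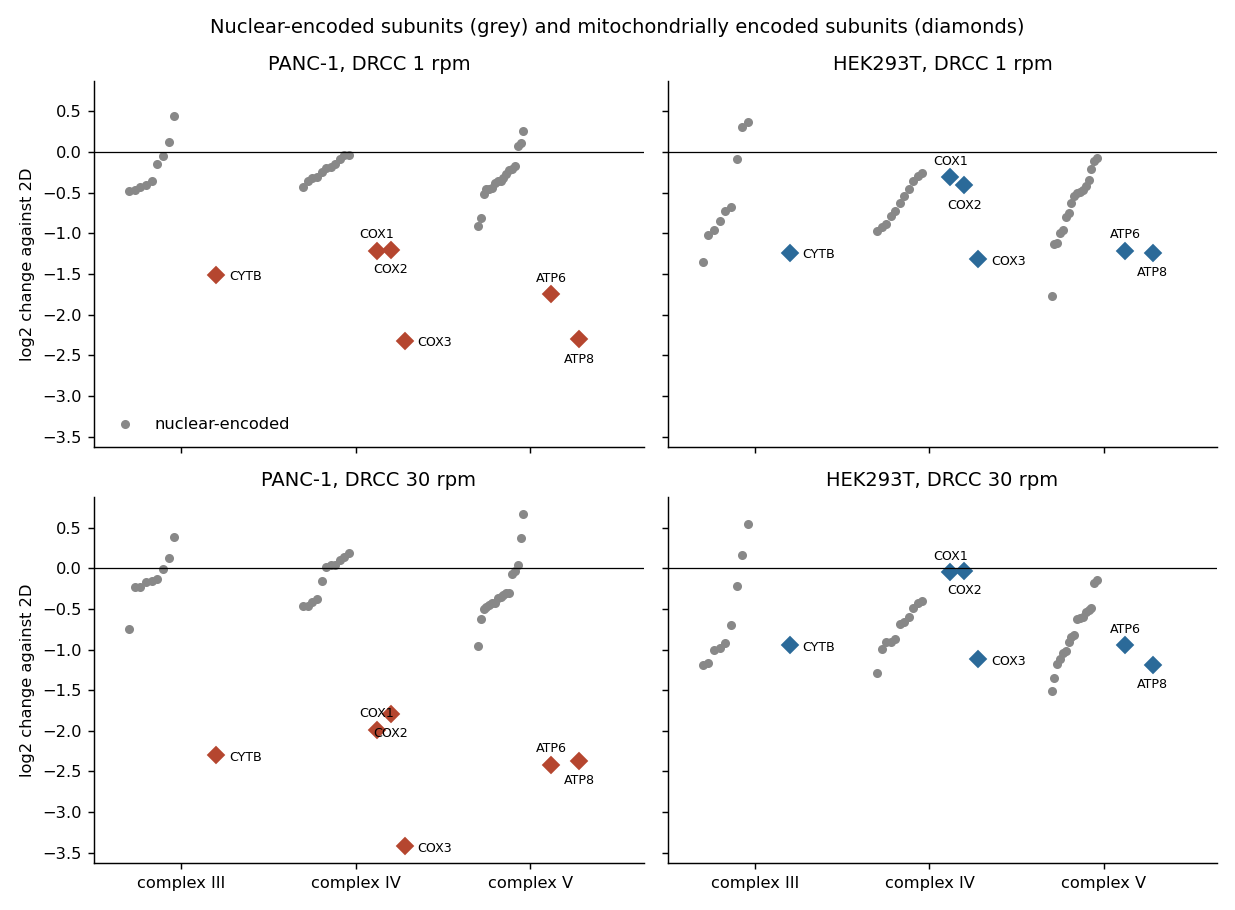
Log2 changes against 2D are shown for nuclear-encoded subunits (grey points, sorted) and mitochondrially encoded subunits (diamonds) of complexes III, IV and V, by line and rotation speed. Without rescaling of the deposited values, the PANC-1 diamonds lie at -1.20 or lower, under all grey points, while in HEK293T at 30 rpm COX1 (-0.05) and COX2 (-0.03) lie above the grey points of complex IV.

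Among 22 assembly and translation factors of the members, 5 rose and 12 fell in PANC-1 at 1 rpm and 5 rose and 14 fell at 30 rpm, where 33.9% and 32.2% of all tested genes were called lower and 52.3% and 53.6% higher. In HEK293T 1 rose and 16 fell, then 1 rose and 18 fell, against 31.7% and 35.5% lower and 53.1% and 49.6% higher, and under median-ratio scaling the numbers of rises were 0 to 1 in these 4 comparisons. SCO2, which delivers copper to COX2, fell in each: from 13.68 ± 1.34 FPKM in PANC-1 2D to 6.034 ± 0.394 and 6.399 ± 0.853 FPKM, and from 31.87 ± 0.957 FPKM in HEK293T 2D to 9.672 ± 0.628 and 9.445 ± 0.582 FPKM. COA3, which acts with newly made COX1, fell by 1.27 ± 0.046 and 1.43 ± 0.046 in HEK293T.

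Genes that copy, transcribe, cut and stabilise mitochondrial nucleic acids changed in each direction, in numbers that depended on scaling. Of 32 tested, 8 rose and 15 fell in PANC-1 at 1 rpm, 7 and 21 at 30 rpm, and 9 and 19, then 12 and 16, in HEK293T, against the shares of all genes given for the assembly factors. Median-ratio scaling gave 4 and 23, then 2 and 25, in PANC-1, and 9 and 22, then 11 and 17, in HEK293T. Quantile normalization gave 5 and 21, then 3 and 26, and 8 and 22, then 9 and 17. POLG2, the accessory subunit of the mitochondrial DNA polymerase, rose in PANC-1 from 5.836 ± 0.436 to 15.39 ± 1.48 and 15.3 ± 0.379 FPKM. SLIRP, which binds mitochondrial mRNAs, fell in HEK293T from 272 ± 1.26 to 93.49 ± 3.88 and 89.42 ± 7.53 FPKM, and ELAC2, which cuts tRNA 3′ ends from the precursor, by 1.29 ± 0.033 and 1.26 ± 0.033. FASTKD5, which acts in the maturation of mitochondrial mRNAs, fell in PANC-1 by 0.54 ± 0.03 and 0.90 ± 0.03. Of 5 nuclear regulators tested, 3 rose and 1 fell in PANC-1 at 1 rpm and 2 rose and 2 fell at 30 rpm (medians 0.19 and 0.00). In HEK293T 1 rose and 4 fell, then 1 rose and 3 fell (medians -0.21 and -0.18). The shares of all tested genes called higher and lower were 52.3% and 33.9%, then 53.6% and 32.2%, in PANC-1. In HEK293T they were 53.1% and 31.7%, then 49.6% and 35.5%. GABPA, a transcription factor of respiratory genes and the 1 that rose in HEK293T, changed by 0.92 ± 0.039 and 0.90 ± 0.039 in PANC-1 and by 1.57 ± 0.119 and 1.78 ± 0.119 in HEK293T. Among the other regulators, NRF1 changed by -0.60 in PANC-1 at 1 rpm and by -0.37 in HEK293T at 30 rpm. PPRC1 changed by -0.52 in HEK293T at 1 rpm, and ESRRA by 0.48 in PANC-1 at 30 rpm.

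The genes whose pattern was most like the mean of the members were ranked by Pearson's r over the 8 group means of log2(FPKM + 1), each line centred on its own mean, among 8022 genes other than the members. They were ND3 (0.996), ND1 (0.992), NUP37 (0.989), HIKESHI (0.985), ZDHHC5 (0.984) and PUDP (0.983). NUP37, a nuclear pore protein gene, stood at 18.1 ± 1.86 and 18.18 ± 0.67 FPKM in PANC-1 2D and AggreWell and at 10.12 ± 0.189 and 9.087 ± 0.313 FPKM in the rotating formats. For COX3 the nearest gene was ND3 (0.997), for ATP8 ND2 (0.991) and for CYTB ND3 (0.986), while COX1 and COX2 were nearest to the nuclear genes CLINT1 (0.989) and NIF3L1 (0.987). Between members, r ran from 0.896 for COX1 and ATP8 to 0.997 for CYTB and ATP6. These values describe 8 points from the same libraries and carry no test.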

How the data were processed

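RNA-seq libraries of PANC-1 and HEK293T in 4 formats, 3 per group, were described by the labels, which name TRIzol extraction and a VAHTS Universal V10 RNA-seq kit. The authors deposited 1 table of FPKM values. The submitters' processing notes list R 3.2.0, HTSeq, HISAT2 and fastp without saying what each did. The notes name mm10, but the table holds human symbols, and the lengths implied by its 13 mitochondrial genes equal the human RefSeq lengths. Whole fragments were recovered for all 26450 genes (tolerance 0.01). Strand and poly(A) selection were not given in the sources used here. Reads from the strand opposite a member therefore could not be told apart from its own. The expression table holds 0 rows for nuclear copies of the members, so reads of such copies could not be set apart either.

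Changes were tested with limma 3.58.1 in R 4.3.3 on log2(FPKM + 1) with an intensity trend, after a filter that asked for an FPKM of 1 or more in 3 or more libraries. Each line was fitted over its 12 libraries and the line difference as an interaction over 24. P-values were Benjamini-Hochberg adjusted over all genes tested, and calls used 0.05. Tables and figures were made in Python 3.11.15 with pandas 2.3.3 and numpy 2.4.6. The settings varied were the pseudocount (0.1), the filter (none, or a mean of 5 FPKM or more), the scaling (median-ratio, quantile, or on nuclear genes), the values (voom on recovered fragments), the samples (the compared formats alone, or 1 library left out) and a replicate block. The procedure was tested on simulated data. Named genes of the nuclear lists were chosen from the 2 called genes with the largest change per list, line and rotation speed. Not all of these candidates were named. Members and lists were chosen with earlier results of these data known. Positions and sequences are from GENCODE v29 (GRCh38).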

Additional observations from a re-analysis of the deposited data

Results flagged for a closer look

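A difference between the lines in the change against 2D was called for all 6 genes in all 3 formats (interaction over 24 libraries, limma adjusted p under the threshold of 0.05). Given as the HEK293T change minus the PANC-1 change on the log2 scale, it was -1.04 for CYTB, -0.13 for COX1, -0.34 for COX2, -1.01 for COX3, -1.02 for ATP6 and -1.24 for ATP8 in AggreWell. At 1 rpm it was 0.26 for CYTB, 0.90 for COX1, 0.79 for COX2, 1.00 for COX3, 0.54 for ATP6 and 1.06 for ATP8. At 30 rpm it was 1.36 for CYTB, 1.94 for COX1, 1.76 for COX2, 2.30 for COX3, 1.47 for ATP6 and 1.19 for ATP8. The sign was negative for all 6 genes in AggreWell, where the HEK293T libraries fell and those of PANC-1 mostly did not, and positive for all 6 at both speeds, where PANC-1 fell further. Under quantile normalization the AggreWell differences of COX1 and COX2 were 0 and that of CYTB at 1 rpm was 0.01, and these 3 were not called.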

How the results depend on the processing

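Of 810 changes of single members recomputed with all libraries, 781 stayed in direction and on their side of the threshold, 18 lost the call, 8 gained it and 3 changed sign. With a library left out, 1280 of 1296 stayed, 12 lost the call and 4 gained it. The changes of sign were COX1 in PANC-1 AggreWell against 2D under median-ratio scaling (-0.19, 0.00 as reported), and, under quantile normalization, COX2 in HEK293T at 30 rpm against 2D (0.20) and CYTB in HEK293T at 30 rpm against AggreWell (-0.089), neither of which was called as reported. Causes were not tested, except that quantile normalization sets genes of the same rank in all libraries to 0 by construction. In PANC-1 AggreWell against 2D the members called numbered 1 as reported, 0 with no filter, 4 with median-ratio scaling, 2 with voom, 0 with only the formats compared, and 0 to 2 with a library left out. In HEK293T at 30 rpm against AggreWell they numbered 3 as reported, 1 with no filter and 1 to 3 with a library left out, and against 1 rpm 5 as reported and 3 with quantile normalization. All other counts of members called stayed within 1.5 times under the alternatives run. The replicate block changed no member call (0 of 90). Same-numbered libraries deviated together with r of -0.0916 to 0.106 in PANC-1 and -0.0966 to 0.43 in HEK293T. The median r was -0.0299 for same-numbered and 0.0163 for other libraries in PANC-1, and 0.0729 and -0.0356 in HEK293T. In HEK293T 6 of 18 same-numbered pairs had r over 0.1. The numbers were not taken as pairs, and whether same-numbered HEK293T libraries shared a batch was not tested.

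As a share of the FPKM sum, the members took 6.02%, 6.26%, 2.43% and 1.40% in PANC-1 2D, AggreWell, 1 rpm and 30 rpm, and 7.32%, 5.40%, 5.03% and 6.03% in HEK293T. Requiring a mean FPKM of at least 5 cut the genes called at 1 rpm and 30 rpm against 2D from 9985 to 6569 and from 9935 to 6519 in PANC-1, and from 10642 to 7049 and 10672 to 7104 in HEK293T. Against AggreWell it cut them from 9504 to 6294 and 9648 to 6381 in PANC-1, and from 9856 to 6563 at 30 rpm in HEK293T. For the line difference the counts went from 7632 to 4919, 10145 to 6463 and 10642 to 6683 in AggreWell, at 1 rpm and at 30 rpm, since fewer genes were tested. Depth limits ATP8 most, with 736 to 14098 fragments per library against 10900 or more for the others.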
